A study of Rattus norvegicus with 7 samples.

Results

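The constitutive proteasome genes encode the standard subunits of the proteasome and the proteins that help to build it. They were taken by symbol as every gene whose name starts with Psma, Psmb, Psmc, Psmd, Psmf or Psmg, leaving out the immunoproteasome genes Psmb8, Psmb9 and Psmb10. The rule used no measured value. It found 38 genes with a probe on the array, of which 37 could be tested, out of 19988 genes and unnamed probes tested in all. Psma8, the alpha subunit known from the testis, had 3 probes, none of which was well above background on any array, and it was not tested. Psmd11, Psmg1, Psmg3 and Psmb11 and the copy genes Psmb3l1, Psmb3l2, Psmb6l1 and Psmg4l1 had no matched probe and were not analysed here. By textbook role the tested genes comprise 7 of the alpha ring and 7 of the beta ring of the 20S core, 6 ATPases, 3 other base subunits and 7 lid subunits of the 19S regulatory particle, 5 assembly chaperones and the regulator Psmf1. The rule also takes Psmc3ip, a meiotic recombination factor named for its binding to Psmc3 and no subunit of the proteasome.

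Cerebellar RNA was measured on 1-colour Agilent arrays in female Wistar pups aged 21 days. In the control group (CTRL, n = 4) the dams ate a standard diet. In the methyl donor deficiency group (MDD, n = 3) they ate a diet in which folate and vitamin B12 were deficient and choline was reduced. These nutrients feed methyl groups into one-carbon metabolism. Both diets ran from 1 month before pregnancy to weaning at 21 days, so the exposure covered gestation and nursing. The labels call the pups of a group biological replicates and name no dam or litter, so p-values measure the spread between these pups, some of which may share a litter.

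The proteasome degrades proteins tagged with ubiquitin. Its barrel-shaped 20S core is built of outer alpha rings, which guard the entrance, and inner beta rings, which hold the cutting sites, and the 19S particle binds the tagged protein, removes the ubiquitin and unfolds and feeds in the chain with its ATPases. In neurons the proteasome turns over synaptic and growth-related proteins, and its subunit genes are known to be raised together by the transcription factor Nfe2l1 (Nrf1), which binds antioxidant response elements when proteasome activity is short.

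Short stretches upstream of the genes, searched for the element which that factor binds, are shown first. The windows come from RefSeq on build GRCr8 and run from 250 bases before to 50 bases after each annotated start. They were found for 33 of the 37 tested genes, and Psma7, Psmd6, Psmd12 and Psmd14 had none. A script searched both strands for TGACNNNGC, the core of the antioxidant response element. Shown are the matches of the beta ring genes Psmb2, Psmb5 and Psmb6 and of the chaperone Psmd9, since the beta ring had the largest class median and Psmd9 was called higher, each printed 5′ to 3′ on the gene's own strand with the match in capitals.
Psmb2: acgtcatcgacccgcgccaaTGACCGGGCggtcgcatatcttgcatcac
Psmb5: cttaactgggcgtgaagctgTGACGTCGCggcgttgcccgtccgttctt
Psmb6: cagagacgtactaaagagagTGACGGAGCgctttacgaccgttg
Psmd9: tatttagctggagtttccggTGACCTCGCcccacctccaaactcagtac
The Psmb2 stretch lies at chr5:144254970-144255018 on the plus strand, with the match 68 to 60 bases before the start. The Psmb5 stretch lies at chr15:32047411-32047459 on the minus strand, and its match lies 60 to 52 bases before the start. The Psmb6 stretch lies at chr10:55737844-55737887 on the plus strand and its match is the closest of the 4 to the start, at 24 to 16 bases. The Psmd9 stretch lies at chr12:39018313-39018361 on the minus strand, with the match 77 to 69 bases before the start and another match on the opposite strand 124 to 116 bases before it.

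TGACNNNGC occurred in 7 of the 33 windows (21.21%), against 12.06% of all 33469 windows and 14.38% of the 9783 windows of named genes that were tested. Of the 9 genes called higher in MDD that have a window 3 held a match, and of the 24 not called 4 did. Those 4 are Psmb2, shown above, and Psma3, Psmd1 and Psmd3. CCAAT, the box bound by the factor NF-Y, occurred in 18 of 33 windows (54.55%). It occurred in 37.49% of all windows and 37.8% of those of tested named genes. Of the 9 genes called higher 4 held CCAAT, and of the 24 not called 14 did. In Psmb2 a CCAAT match overlaps the TGACNNNGC match. CCGGAAG, the core of sites of ETS family factors, occurred in 10 of 33 windows (30.3%). It occurred in 8.745% of all windows and 15.94% of those of tested named genes. Of the 9 genes called higher 2 held CCGGAAG, and of the 24 not called 8 did. Psmb4, which had the largest change of the proteasome genes in the values used here, holds no TGACNNNGC in its window and has a CCGGAAG match on the opposite strand, 22 to 16 bases before the start, shown in capitals in this stretch at chr2:185134562-185134603 on the minus strand.
Psmb4: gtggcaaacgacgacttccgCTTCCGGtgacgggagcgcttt
A match is a run of letters and not a binding site, and no binding was measured.

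All values below are log2 intensities minus the array's own 75th percentile, so 0 is that percentile, and a difference of 1 is a 2-fold change. A level is not comparable between genes, since probes differ in how brightly they bind. Over the whole array limma with Benjamini-Hochberg adjustment called 4080 of 19988 genes and unnamed probes at an adjusted p under 0.05 (20.4%), 2537 of them higher in MDD (12.7%) and 1543 lower (7.72%), with a median log2 change of -0.03. Arrays had 74.1% to 79.6% of spots well above background and 75th percentiles of 1140 to 2105 intensity units, the lowest on MDD replicate 3, and the number of arrays limits the precision. All 8 granule neuron and all 5 Purkinje cell markers were measured. All 7 arrays share 1 slide and 1 scan time.

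Of the 37 proteasome genes 10 were higher in MDD and 0 were lower by limma, which is 27% against the 12.7% called higher over the array. The 10 are Psma7, Psmb1, Psmb3, Psmb4, Psmb5, Psmb6, Psmd4, Psmd8, Psmd9 and Psmg4, and 5 of them belong to the beta ring. At an unadjusted p under 0.05 there were 17 higher and 0 lower, where 20.5% of all features were higher and 18.3% lower. The median log2 change was 0.27 with a range from -0.31 (Psmc6) to 1.12 (Psmb4), and 28 genes had a higher mean in MDD and 9 a lower one. The MDD arrays lay wholly above the CTRL arrays for 20 genes, where 20.1% of all features did so, and wholly below for 1, Psma1, where 16.4% did. In bulk tissue fewer cells of a type and less RNA per cell cannot be told apart, so these are levels in the mixture.

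The count of called genes depended on single arrays. Leaving out CTRL replicate 1, 2, 3 or 4 left 4, 5, 3 or 2 genes higher. Leaving out MDD replicate 1, 2 or 3 left 7, 11 or 6, with 0 lower each time. The count over the array moved as well, from 2537 of 19988 features higher in the fit with all arrays. It was 1392, 1346, 1072 or 793 without a CTRL array and 1771, 2904 or 1758 without an MDD array, in the same order. Features called lower over the array were 221 to 2329 in these fits. Psmb4 and Psmb6 kept their call in all 7 of these fits, Psmd8 in 6, Psmb3 and Psmd9 in 4, Psmb5 in 3, Psma7 and Psmb1 in 2, Psmg4 in 1 and Psmd4 in 0. With the row of the array on the slide as a covariate 0 proteasome genes were called by limma, 8 at an unadjusted p under 0.05, all of them higher, where 13.2% of all features were higher and 7.21% lower by that rule. CTRL replicates 1 to 3 lie in 1 row and CTRL replicate 4 lies with all MDD arrays in the other, so that fit rests the comparison on a single control array.

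**Figure D1:**
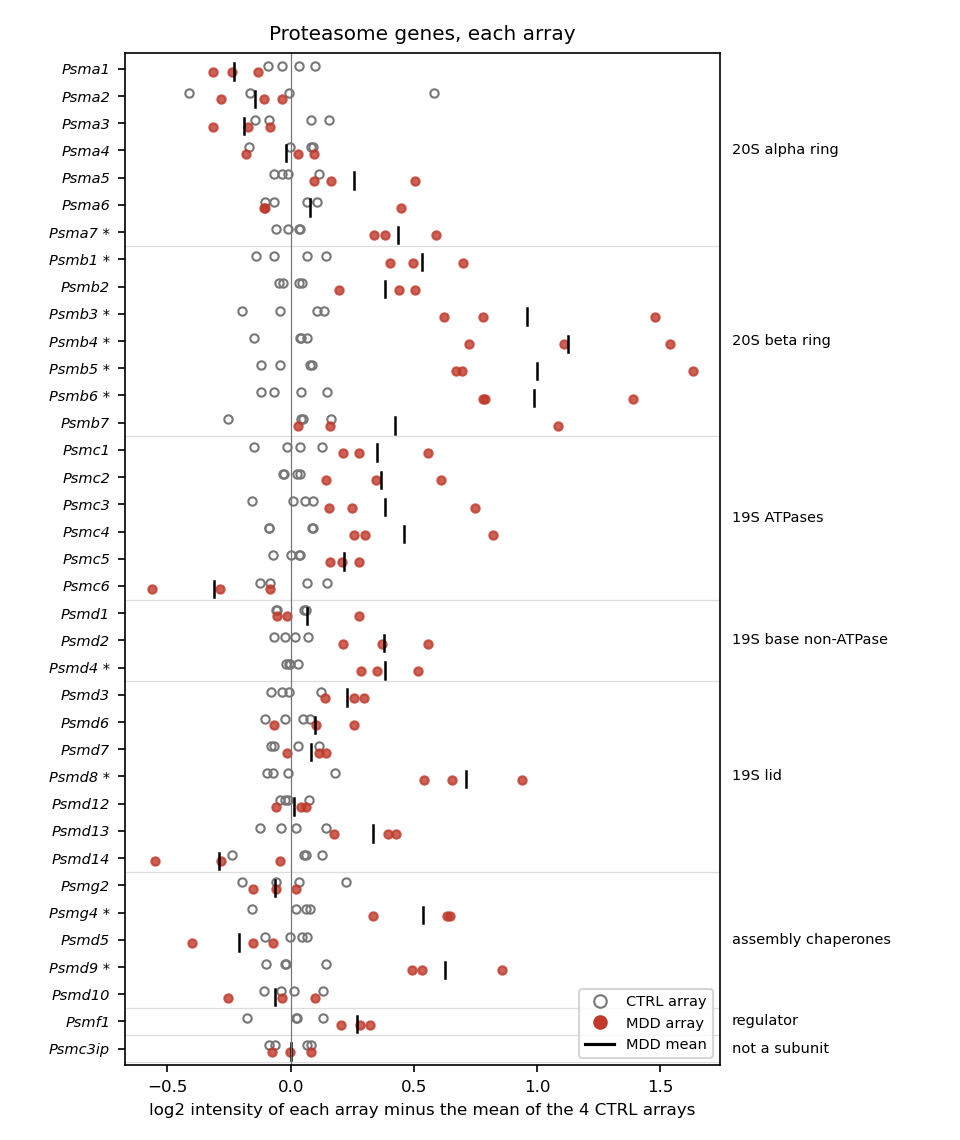
Each of the 37 tested proteasome genes on its own line, with the log2 intensity of every array minus the mean of the 4 CTRL arrays on the horizontal axis. Open circles are CTRL arrays, filled circles MDD arrays, bars the MDD mean, and an asterisk marks an adjusted p under 0.05 by limma. The beta ring genes Psmb3, Psmb4, Psmb5 and Psmb6 stand farthest to the right, and most genes of the alpha ring stay within the spread of the CTRL arrays or left of 0.

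The alpha ring genes did not move as a group. Of 7 genes 1 was higher (14.3%, against 12.7% of all features) and 0 were lower. In MDD 4 of the 7 means were lower, and the median log2 change was -0.02. Psma7, the widely expressed paralog of the testis gene Psma8, stood at 2.81, 2.76, 2.71 and 2.80 in the CTRL arrays and at 3.11, 3.15 and 3.36 in the MDD arrays. The groups did not overlap. Psma7 was 1.35-fold higher (log2 0.44, SE 0.11, limma adjusted p = 0.0338), and its call was lost both with quantile normalization (log2 0.18) and in the authors' deposited table (log2 0.18).

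Psma1, another subunit of that ring, went the other way. It read 2.26, 2.19, 2.12 and 2.07 in CTRL against 2.03, 1.85 and 1.92 in MDD, every MDD array below every CTRL array. The log2 difference of -0.23 (SE 0.11) was not called (limma adjusted p = 0.171). It became a call on the lower side with quantile normalization (log2 -0.37, limma adjusted p = 0.0467), with the authors' deposited table (log2 -0.34, limma adjusted p = 0.0425) and with the length trend removed (log2 -0.46, limma adjusted p = 0.0322). The other alpha genes, Psma2 to Psma6, had log2 differences from -0.19 (Psma3) to 0.25 (Psma5), with overlapping groups and no call. Psma6 read 4.04 in MDD replicate 1 and 3.48 in both of the other MDD arrays, so its mean difference of 0.08 comes from 1 array.

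The beta ring held the largest changes. Of its 7 genes 5 were higher (71.4%, against 12.7% of all features) and 0 lower, and all 7 means were higher in MDD. For 6 of 7 the MDD arrays lay wholly above the CTRL arrays, where 20.1% of all features did so. The median log2 change was 0.96. The cutting subunits are Psmb5 with chymotrypsin-like activity, Psmb6 with caspase-like activity and Psmb7 with trypsin-like activity.

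Psmb5 stood at 2.93, 3.13, 3.13 and 3.01 in CTRL and at 3.75, 3.72 and 4.68 in MDD. MDD replicate 3 lay well above the other MDD arrays, which themselves lay above every control. The mean rose from 3.05 ± 0.10 (SD, n = 4) to 4.05 ± 0.55 (SD, n = 3), a log2 change of 0.999 (SE 0.23, limma adjusted p = 0.0243). Psmb6 stood at 0.78, 1.0, 0.90 and 0.73 in CTRL and at 1.64, 1.63 and 2.24 in MDD, again with no overlap and with MDD replicate 3 on top. It rose 1.98-fold, from 0.85 ± 0.12 (SD, n = 4) to 1.84 ± 0.35 (SD, n = 3) on the log2 scale (SE 0.17, limma adjusted p = 0.0118). Psmb7 behaved differently. It read 1.32, 1.62, 1.63 and 1.74 in CTRL and 1.61, 1.74 and 2.66 in MDD, so that MDD replicates 1 and 2 fell inside the control range. Its log2 difference of 0.42 (SE 0.25) was not called (limma adjusted p = 0.239), and the difference between Psmb7 and the other cutting subunits was not tested.

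Among the beta subunits that do not cut, Psmb4, which joins the ring late in its assembly, gave the largest change. With quantile normalization and in the authors' deposited table the change of Psmb6 was larger (log2 0.89 in both, against 0.76 and 0.75 for Psmb4), and with the trend with length and signal removed that of Psmb3 was (log2 0.63 against 0.58). The CTRL arrays of Psmb4 read 3.27, 3.25, 3.25 and 3.06 and its MDD arrays 4.32, 3.93 and 4.75. All MDD arrays lay above all CTRL arrays by more than the range of the controls. The rise was 2.18-fold, from 3.21 ± 0.10 (SD, n = 4) to 4.33 ± 0.41 (SD, n = 3) on the log2 scale (SE 0.19, limma adjusted p = 0.0109). Psmb3 stood at 1.84, 2.17, 1.99 and 2.14 in CTRL and at 2.65, 2.81 and 3.51 in MDD, a 1.95-fold rise with no overlap (SE of log2 0.21, limma adjusted p = 0.0205). The RefSeq table lists 10 copies of Psmb3, 8 of them pseudogenes, more than for any other tested proteasome gene. At least 1 copy is listed for 16 of the 37 tested genes, including the called genes Psma7, Psmb4, Psmb6, Psmd8 and Psmg4. Whether the probes of these genes also bind transcripts of the copies was not tested.

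Psmb1 read 1.34, 1.26, 1.13 and 1.06 in CTRL and 1.69, 1.60 and 1.90 in MDD. The groups did not overlap, and the rise was 1.45-fold (log2 0.53, SE 0.13, limma adjusted p = 0.0278). Psmb2 read 2.13, 2.23, 2.15 and 2.22 in CTRL and 2.62, 2.38 and 2.69 in MDD. Its groups did not overlap either, but the log2 difference of 0.38 (SE 0.12) missed the threshold (limma adjusted p = 0.0556).

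**Figure D2:**
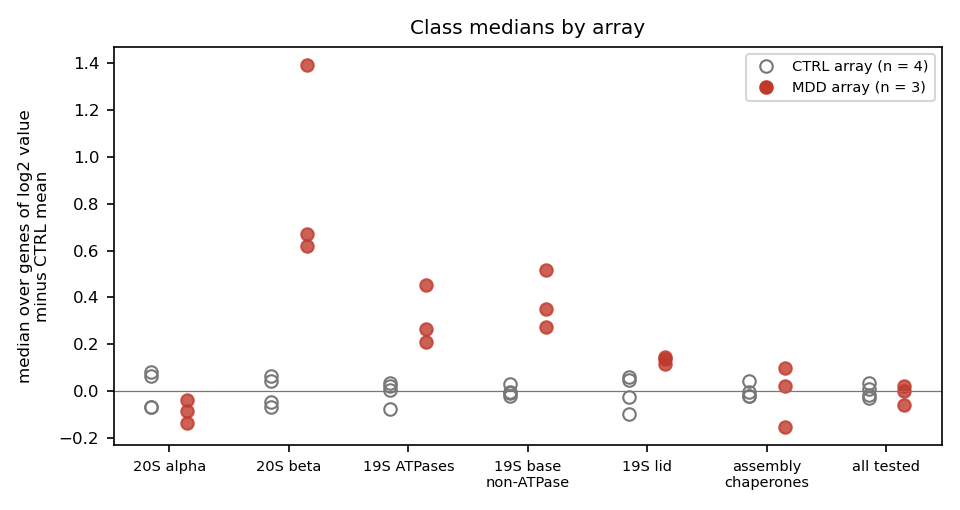
Median over the genes of each class of the log2 value minus the CTRL mean, on the vertical axis, for each array. Open circles are the 4 CTRL arrays and filled circles the 3 MDD arrays. The beta ring median reads 0.62, 0.67 and 1.39 in the MDD arrays, and the alpha ring median lies between -0.13 and -0.04.

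In each MDD array the beta ring median was the highest of the class medians. The beta ring median, relative to the CTRL mean, lay between -0.07 and 0.07 in the CTRL arrays and at 0.62, 0.67 and 1.39 in MDD replicates 1, 2 and 3. The alpha ring median lay between -0.07 and 0.08 in CTRL and at -0.13, -0.04 and -0.08 in MDD. The order held for the medians and not for every gene. Relative to their CTRL means, Psmb7 and Psmb2 lay below Psma7 in MDD replicate 2. In MDD replicate 1 Psmb1, Psmb2 and Psmb7 lay below Psma5, and in MDD replicate 3 Psmb2 lay below Psma7. The difference between classes was not tested, since a score over chosen genes gets no p here. MDD replicate 3 was the highest MDD array for 26 of the 37 proteasome genes (70.3%), against 45.8% of all features tested. It also had the highest mean log2 level of the 2 red cell markers measured, Hbb and Alas2, at 4.13 against 2.75 and 2.19 in MDD replicates 1 and 2 and 1.75 to 2.65 in CTRL. The same held for the 4 choroid plexus markers, at 0.29 against -0.22 and -1.24 and a CTRL range from -1.08 to -0.49. By limma 0 of these 6 markers were called, and the choroid genes Ttr and Folr1 had an unadjusted p under 0.05. Their part in the beta ring values of that array was not tested. Without it the beta ring median was 0.68, and Psmb3, Psmb4, Psmb5, Psmb6, Psmd8 and Psmd9 were still called.

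The ATPases form the ring of the 19S particle that unfolds substrates. None of the 6 was called by limma, and 4 had an unadjusted p under 0.05 with a higher mean in MDD, against the 20.5% of all features given above. Their median log2 change was 0.36. The MDD arrays lay wholly above the CTRL arrays for 5 of 6, where 20.1% of all features did so. Psmc4 read 0.62, 0.80, 0.80 and 0.63 in CTRL and 0.97, 1.01 and 1.54 in MDD. No array of one group reached the other, and the log2 difference was 0.46 (SE 0.16, limma adjusted p = 0.0756). Psmc2 read 3.60, 3.67, 3.66 and 3.60 in CTRL and 4.24, 3.78 and 3.98 in MDD, a log2 difference of 0.37 (SE 0.14, limma adjusted p = 0.0853) that turned to -0.0092 with quantile normalization and to -0.0090 in the authors' deposited table.

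Psmc6 was the exception among the ATPases and had the lowest log2 difference of the 37 genes in the values used here; Psma1 was lower with quantile normalization, in the authors' deposited table and with the trend removed. It read -0.60, -0.45, -0.64 and -0.37 in CTRL and -1.08, -0.80 and -0.60 in MDD. The groups overlapped through MDD replicate 3, and the difference of -0.31 (SE 0.15) was not called (limma adjusted p = 0.155). Psmc1, Psmc3 and Psmc5 had log2 differences of 0.35, 0.38 and 0.22 without overlap and without a call. Psmc5 changed sign with quantile normalization, where it was -0.22.

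Of the 3 other base subunits 1 was higher (33.3%, against 12.7% of all features) and 0 lower. Their median log2 change was 0.38. Psmd4, a receptor for ubiquitin chains, read 2.30, 2.32, 2.35 and 2.31 in CTRL and 2.61, 2.67 and 2.84 in MDD. The controls lay very close together and well below the MDD arrays. Psmd4 rose 1.31-fold (log2 0.38, SE 0.11, limma adjusted p = 0.0437), a call that was lost when any single array was left out and that held under 1 of 4 other scalings. Psmd2, the scaffold on which shuttle proteins dock, read 3.44, 3.49, 3.58 and 3.53 in CTRL and 3.72, 3.88 and 4.07 in MDD, with no overlap. Its log2 difference of 0.38 (SE 0.12) was not called (limma adjusted p = 0.0600) and shrank to 0.02 with quantile normalization. The companion scaffold Psmd1 had overlapping groups and a log2 difference of 0.07.

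The lid sits over the base and carries the deubiquitinase Psmd14. Of its 7 genes 1 was higher (14.3%, against 12.7% of all features) and 0 lower, with a median log2 change of 0.10. Psmd8, a structural lid subunit, read 0.73, 0.98, 0.79 and 0.70 in CTRL and 1.34, 1.46 and 1.74 in MDD. The groups stood clear of each other. The rise was 1.64-fold, from 0.80 ± 0.12 (SD, n = 4) to 1.51 ± 0.20 (SD, n = 3) on the log2 scale (SE 0.14, limma adjusted p = 0.0154), and it was called in 6 of the 7 fits without 1 array.

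Psmd13 read 0.33, 0.45, 0.27 and 0.18 in CTRL and 0.70, 0.48 and 0.73 in MDD. The lowest MDD array lay just above the highest control, and the log2 difference of 0.33 (SE 0.12) was not called (limma adjusted p = 0.0885). Psmd14 itself read 0.27, 0.28, 0.34 and -0.02 in CTRL and -0.33, -0.07 and 0.17 in MDD, so its groups overlapped, with a log2 difference of -0.29 and no call. Psmd3 had groups that did not overlap and a log2 difference of 0.23, also not called. Psmd6, Psmd7 and Psmd12 had log2 differences from 0.01 to 0.10 with overlapping groups.

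Of the 5 assembly chaperones 2 were higher (40%, against 12.7% of all features) and 0 lower. The median log2 change was -0.06. Psmd9, which escorts ATPases into the base, read 0.35, 0.59, 0.43 and 0.43 in CTRL and 0.99, 0.94 and 1.31 in MDD. It rose 1.54-fold with no overlap (log2 0.63, SE 0.13, limma adjusted p = 0.0191), and its other kept probe gave a log2 difference of 0.54. Psmg4, which helps to build the alpha ring, read -0.07, 0.11, 0.17 and 0.15 in CTRL and 0.73, 0.42 and 0.74 in MDD. It rose 1.45-fold, again with no overlap (log2 0.54, SE 0.13, limma adjusted p = 0.0274), and its other kept probe gave 0.41. The remaining base chaperones Psmd5 and Psmd10 and the alpha ring chaperone Psmg2 had log2 differences of -0.21, -0.06 and -0.06, all with overlapping groups and no call. Chaperones of both particles were thus among the called and the uncalled genes.

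Psmf1, which binds the core and can inhibit it, read 0.93, 1.13, 1.24 and 1.13 in CTRL and 1.39, 1.31 and 1.43 in MDD. Its groups did not overlap, and the log2 difference of 0.27 (SE 0.12) was not called (limma adjusted p = 0.133). Psmc3ip, no subunit, read -1.63, -1.65, -1.80 and -1.78 in CTRL and -1.79, -1.72 and -1.63 in MDD. Its groups covered the same range, and both means were -1.71.

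**Figure D3:**
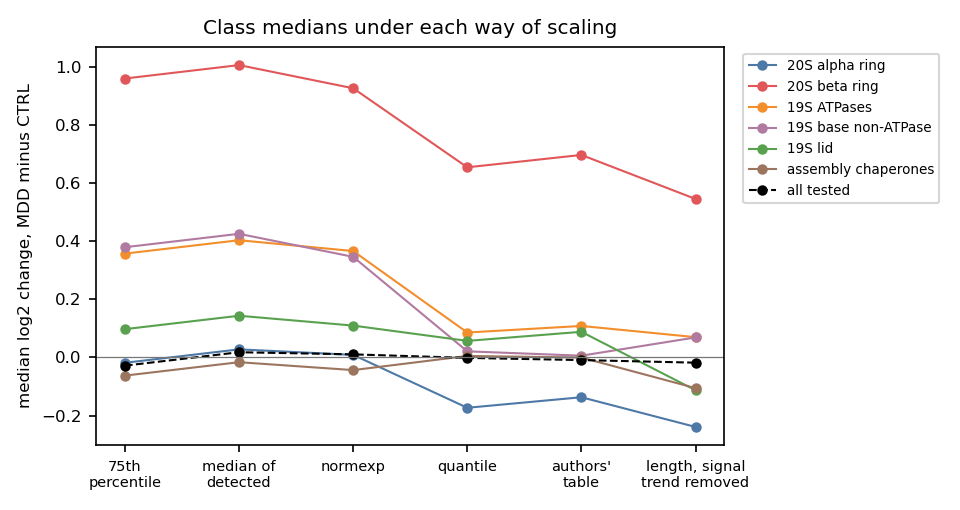
Median log2 change, MDD minus CTRL, of each class on the vertical axis under 6 ways of scaling the same arrays; lines join the points of a class. The beta ring stays uppermost at 0.55 to 1.01, and the ATPases and other base subunits come close to 0 with quantile normalization and the authors' deposited table.

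Scaling changed how far the other classes stood from 0. The beta ring median was 1.01 with scaling by the median probe, 0.93 with normexp background correction, 0.65 with quantile normalization, 0.70 with the authors' deposited table and 0.55 once the trend with gene length and signal was removed. The ATPase median went from 0.36 to 0.09 with quantile normalization, and that of the other base subunits from 0.38 to 0.02. The alpha ring median changed sign among the scalings, from 0.03 with scaling by the median probe to -0.14 in the authors' deposited table and -0.17 with quantile normalization, and the lid median was -0.11 only with the length trend removed. Counts of called proteasome genes, higher and lower, were 13 and 0 with scaling by the median probe and 9 and 0 with normexp. They were 8 and 1 in the authors' deposited table, 7 and 1 with quantile normalization and 4 and 1 with the trend removed. The lower one was Psma1 each time. Over all features the counts were 3046 and 1304 of 19988 with the median probe and 2390 and 1769 of 19991 in the authors' deposited table. They were 2198 and 1400 of 19988 with quantile normalization and 763 and 565 of 11965 named genes with the trend removed. Over the array normexp gave 2310 higher and 876 lower calls, 72.5% higher against 62.2% in the values used here, and it was the same genes of the beta ring, 5 of 7, that it called. Quantile normalization left 23 of the 37 proteasome genes with a higher mean in MDD, against 28.

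**Figure D4:**
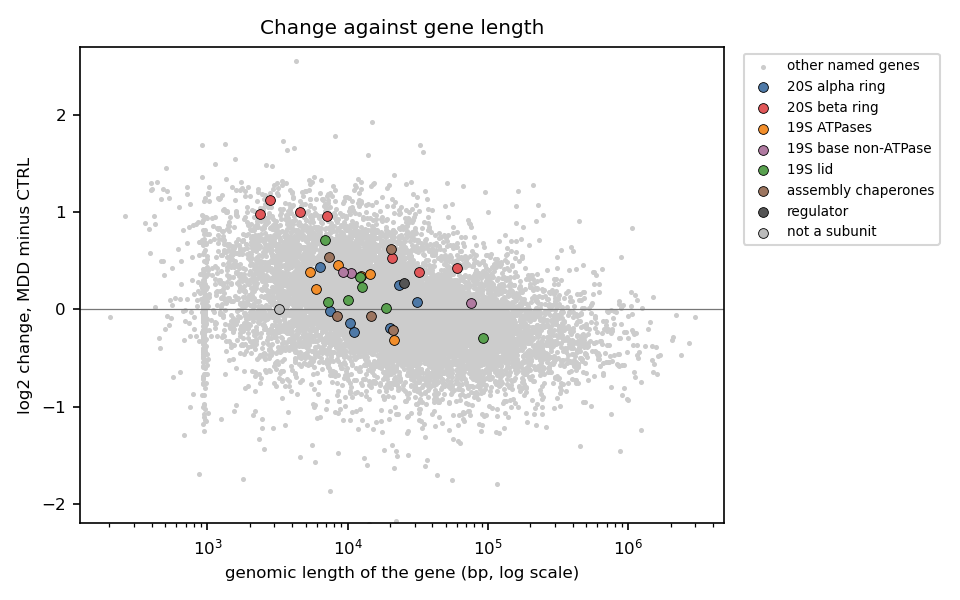
Log2 change, MDD minus CTRL, on the vertical axis against genomic length in base pairs on a log axis, with other named genes in grey and proteasome genes coloured by class; 7 genes lie outside the plotted range. Short genes tend to lie higher, and the beta ring genes Psmb4, Psmb5 and Psmb6 are among the shortest and highest proteasome genes.

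Gene length and brightness moved with the change. Over the 37 proteasome genes the log2 change had a Spearman correlation of -0.42 with genomic length and of 0.41 with mean signal, and over the 11965 named genes tested these were -0.40 and 0.23. The points are genes measured on the same 7 arrays and are no independent replicates. The 10 called genes had a median genomic length of 6965 bp (2367 to 20747 bp) and the other 27 one of 12631 bp (3219 to 92734 bp). Psmb6, Psmb4 and Psmb5 span 2367, 2775 and 4596 bp, whereas Psmb7, not called, spans 59971 bp. With each array's trend with length and signal taken out over the named genes, Psmb4 (log2 0.58, limma adjusted p = 0.0413), Psmb6 (log2 0.56, limma adjusted p = 0.0361), Psmd8 (log2 0.43, limma adjusted p = 0.0494) and Psmd9 (log2 0.56, limma adjusted p = 0.0342) kept their calls. Of the other 6, Psmb3 (log2 0.63, limma adjusted p = 0.0636), Psmb1 (log2 0.44, limma adjusted p = 0.0507), Psmb5 (log2 0.55), Psmg4 (log2 0.31), Psmd4 (log2 0.10) and Psma7 (log2 0.06) lost them. The part of length and brightness in the remaining calls was not tested otherwise.

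**Figure D5:**
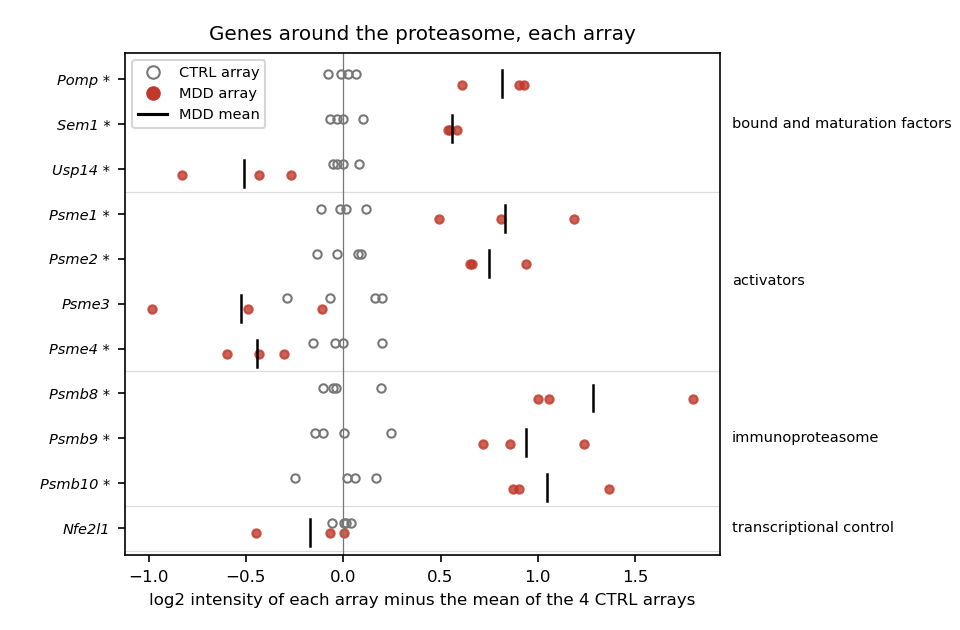
The 11 maturation factors, activators, immunoproteasome genes and regulator described in the text beside it, grouped by role, with the log2 intensity of every array minus the mean of the 4 CTRL arrays on the horizontal axis. Open circles are CTRL arrays, filled circles MDD arrays, bars the MDD mean, and an asterisk marks an adjusted p under 0.05 by limma. The 3 immunoproteasome genes, Pomp and Sem1 lie to the right in all 3 MDD arrays, and Nfe2l1 has MDD arrays at and below 0.

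Genes around the proteasome were measured in the same fit. Of 34 tested, 10 were higher (29.4%) and 4 lower by limma, where 12.7% of all features were higher and 7.72% lower. The median log2 change of the 34 was -0.03. The maturation and bound factors held 2 of 6 higher and 1 lower. Pomp, the factor on which the beta ring is assembled and which the finished core degrades, read 3.57, 3.53, 3.50 and 3.43 in CTRL and 4.44, 4.12 and 4.41 in MDD. It rose 1.76-fold (SE of log2 0.12, limma adjusted p = 0.0103) with groups far apart, and its log2 change was 0.43 with quantile normalization, still called. Sem1, a small lid protein whose symbol falls outside the rule, read 3.20, 3.30, 3.13 and 3.17 in CTRL and 3.78, 3.75 and 3.74 in MDD, a 1.47-fold rise (SE of log2 0.11, limma adjusted p = 0.0147) whose call was lost with quantile normalization (log2 0.23) and in the authors' deposited table (log2 0.26). Usp14, a deubiquitinase bound to the base, was lower (log2 -0.51, limma adjusted p = 0.0460), a call that was lost with normexp (limma adjusted p = 0.0541) and with the trend removed (0.0806).

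The immunoproteasome genes encode cutting subunits that replace Psmb5, Psmb6 and Psmb7 in immune cells and under interferon, and all 3 were higher. Psmb8, the counterpart of Psmb5, read -4.40, -4.11, -4.34 and -4.36 in CTRL and -3.30, -3.25 and -2.50 in MDD, a 2.44-fold rise (limma adjusted p = 0.0105) of 1.28 on the log2 scale, or 0.80 with normexp. Psmb10, the counterpart of Psmb7, read 1.13, 1.54, 1.43 and 1.39 in CTRL and 2.28, 2.25 and 2.74 in MDD, a 2.07-fold rise (limma adjusted p = 0.0105). Neither overlapped, unlike Psmb7 itself. Psmb9, the counterpart of Psmb6, rose 1.92-fold (limma adjusted p = 0.0114), and all of them were well above background on every array. The activator subunits Psme1 and Psme2, which cap the core and are also raised by interferon, rose 1.78-fold and 1.68-fold (limma adjusted p = 0.0175 and 0.0111). With the trend with length and signal removed both calls were lost, at log2 0.42 for Psme1 and 0.38 for Psme2 (limma adjusted p = 0.0615 and 0.0831). The other activators had log2 differences of -0.53 for Psme3, not called, and -0.44 for Psme4, called lower (limma adjusted p = 0.0486). The call of Psme4 was lost with quantile normalization, scaling by the median probe, normexp and the trend removed (limma adjusted p from 0.0507 to 0.190). Microglial markers moved with these genes: 6 of 9 were higher and 1 lower, against 12.7% and 7.72% of all features. Their mean log2 level was -0.63 to -0.43 in the CTRL arrays and -0.20 to 0.12 in the MDD arrays. The lower one was Cx3cr1 (log2 -0.89), and P2ry12 had a log2 difference of -0.0048. Granule neuron markers had 0 of 8 higher and 3 lower, against the same shares, with mean levels of 1.86 to 1.998 in CTRL and 1.35 to 1.68 in MDD. The part of these marker sets in the changes of the proteasome genes was not tested.

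Rps27a, which encodes ubiquitin fused to a ribosomal protein, was higher (log2 0.72, limma adjusted p = 0.0223), a call that was lost with quantile normalization, in the authors' deposited table and with the trend removed. Among the activating enzymes Uba6 was lower (log2 -0.37, limma adjusted p = 0.0442) and Uba1 was not called. The call of Uba6 was lost with quantile normalization, scaling by the median probe, normexp and the trend removed (limma adjusted p from 0.0583 to 0.178). Among the shuttle and extraction factors Ubqln2, a carrier of tagged proteins, was lower (log2 -0.73, limma adjusted p = 0.0171). Of the 7 genes of transcriptional control 0 were called by limma, and 0 had an unadjusted p under 0.05. Nfe2l1 read -1.92, -1.85, -1.86 and -1.83 in CTRL and -1.94, -1.86 and -2.31 in MDD, with overlapping groups and a log2 difference of -0.17. That factor is known to be controlled through its protein, which the arrays do not measure.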

How the data were processed

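Groups were taken from the sample titles. The authors deposited scanner tables of linear intensity per spot, written by version 10.7.3.1 of Feature Extraction (per the file headers), whose processed signal is background-subtracted and not normalized between arrays. The 0 or 1 flags for outlier, saturated and above-background spots are a score by that software, per the file headers. A further deposited table holds normalized intensity on a linear scale, with columns that name the group but not the sample. Its normalization is a step not given in any of the sources used here.

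From the processed signals, log2 values were computed and each array's 75th percentile was subtracted. The authors' deposited table was taken to log2. Control and outlier spots were dropped, and the spots of each probe averaged. Detection on 3 or more of 7 arrays was required, an array counting when 50% or more of a probe's spots were well above background, which retained 22255 of 30367 probes. Symbols came from matching accessions to the RefSeq table of GRCr8 (18355 probes, 15443 genes), and the brightest kept probe stood for a gene. Limma 3.58.1 in R 4.3.3 (lmFit, eBayes, two-sided) compared the groups with 5 residual degrees of freedom, with Benjamini-Hochberg adjustment over 19988 genes and unnamed probes. The code was tested on simulated data. Normexp (offset 50) was run on the median spot signal, in place of the mean signal that had been planned.

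Named genes are, per class, the 2 with the smallest p, the cutting subunits Psmb5, Psmb6 and Psmb7, any gene called lower, the largest and smallest change, and the 6 related genes with the smallest p. Other genes that were called, and those given as examples, were named after their values were seen. The members, lists and tests were chosen with earlier results of these data known. Some genes of the related and marker lists are counted but not reported here by name.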

Additional observations from a re-analysis of the deposited data

Results flagged for a closer look

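In the group of 4 CTRL arrays, 43 genes were checked for an array far from the others, all 37 tested proteasome genes and the 6 named related genes. The rule is met by chance in about 1 in 20 groups, and it was met for 1 gene. Psmb4 read 3.06 in CTRL replicate 4, below the 3.25 to 3.27 of the other controls, and the gap made up 0.876 of the group's range. Without CTRL replicate 4 Psmb4 was still called higher in MDD.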

How the results depend on the processing

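The fits do not all test the same features. With no filter on dim probes 27450 were tested, and with the trend removed only the 11965 named genes. Of those named genes the main fit called 1363 higher and 799 lower. Over the array 4080 of 19988 features were called in the main fit. The count was 1592 with no filter on dim probes, 1328 with the trend with length and signal removed, 1 with the slide row as a covariate, and 1014 to 5233 when 1 array was left out. The 10 proteasome genes called higher became 5 with no filter, 4 with the trend removed, 0 with the slide row (limma, 8 at an unadjusted p under 0.05) and 2 to 11 with 1 array left out. The count called lower, 0, became 1 with quantile normalization, the authors' deposited table and the trend removed, and limma kept it at 0 in all 7 fits with 1 array left out. Their median log2 change of 0.27 became 0.12, 0.11 and 0.0689 in those 3 settings, and 0.24 to 0.33 with 1 array left out.

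Class medians moved as follows. With quantile normalization they were -0.17 for the alpha ring, 0.65 for the beta ring, 0.0859 for the ATPases and 0.0211 for the other base subunits. With the authors' deposited table they were -0.14, 0.70, 0.11 and 0.0061 in that order. With the trend removed they were -0.24, 0.55, 0.0700 and 0.0689, and -0.11 for the lid. With the slide row they were 0.15 for the alpha ring, 0.20 for the lid and 0.14 for the chaperones. With 1 array left out the alpha ring ran from -0.08 to 0.04, the beta ring from 0.68 to 1.09, the ATPases from 0.24 to 0.43, the other base subunits from 0.29 to 0.43, the lid from 0.0892 to 0.18 and the chaperones from -0.0781 to 0.0316. The cause was not tested.

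With the replicate block, the labels' replicate number as a block, limma called 0 features over the array (6161 at an unadjusted p under 0.05) and 0 proteasome genes (9, all higher), with a median of 0.28. Deviations of same-numbered arrays correlated at 0.09, -0.18 and 0.22, and only the pair numbered 3 correlated more highly than with other numbers. So few arrays cannot show whether the numbers pair the samples. For single named genes 327 comparisons kept direction and call, 72 lost the call, 8 gained it and 7 changed sign. Psmc2 became -0.0092 with quantile normalization and -0.0090 in the authors' deposited table. Psmc3ip, near 0, became -0.22 with the trend removed, -0.0202 with the replicate block and -0.0392 to 0.0389 with 1 array left out. Other settings were scaling by the median probe, normexp, all-array detection, the mean of a gene's probes and a trended robust eBayes, and they left these counts and medians within 1.5 times or 1 SD of the main values. The proteasome genes tested were all well above background on all 7 arrays.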
